A study of Mus musculus with 36 samples.

Results

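A set of 10 genes that carry, release, take up or bind lipids was followed in the 3 cell populations that S100β-GFP;NG2-dsRed mice allow to be sorted from skeletal muscle. They were given by symbol (Apoe, Apod, Pltp, Abca1, Lpl, Cd36, Fabp3, Fabp4, Fabp5 and Fabp7) and found by Ensembl identifier among 52636 genes of the count table, with positions below on GRCm38 (GENCODE M21). All 10 were among the 15330 genes that passed the filter on low counts. All mice carried both transgenes, GFP driven by the S100β promoter, which labels Schwann cells, and dsRed driven by the promoter of NG2 (Cspg4). Double-labelled S100β-GFP+;NG2-dsRed+ cells are the perisynaptic Schwann cells (PSCs), the glia that cover the neuromuscular junction. They were compared with cells positive for S100β-GFP alone, named Schwann cells by the study, and with cells positive for NG2-dsRed alone, which in muscle include pericytes. Diaphragm, pectoralis, forelimb and hindlimb muscles of juvenile mice were pooled per animal, and each replicate came from a single mouse. The methods give an age of postnatal day 15 to 21, while the upper day in the labels runs from 21 to 46 across samples, so ages of single libraries were not used. The table held 9 PSC, 8 S100β-GFP+ and 10 NG2-dsRed+ libraries, and the sources used here do not say whether populations were sorted from the same mice.

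Lipids travel between cells as particles held by apolipoproteins such as ApoE, which in nerve is made by glia and macrophages. Lipoprotein lipase frees fatty acids from triglyceride in such particles, CD36 brings fatty acids across the membrane, and small fatty acid binding proteins (FABPs) carry them inside the cell. ABCA1 and phospholipid transfer protein load cholesterol and phospholipid back onto particles. Each FABP is used by particular cells: FABP7 by glia and their precursors, FABP4 by adipocytes, capillary endothelium and macrophages, and FABP3 by heart and skeletal muscle.

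Counts per library ranged from 5221655 to 9592875, and levels are given as CPM (counts per 1000000 after TMM normalization). S100β-GFP+ cells did not carry the markers of a pure Schwann cell sample. The 10 Schwann cell lineage markers, Sox10 and Erbb3 among them, summed to 100.7 to 516.5 CPM per library there against 2088 to 3002 CPM in PSCs and 38.91 to 103.3 CPM in NG2-dsRed+ cells, although myelin genes were present (1535 to 3690 CPM against 2555 to 3476 CPM in PSCs). Fibroblast markers summed to 20410 to 46670 CPM in S100β-GFP+ libraries, 784.1 to 2925 CPM in PSCs and 2764 to 19870 CPM in NG2-dsRed+ cells. Macrophage and leukocyte markers summed to 1429 to 13480 CPM in S100β-GFP+ libraries, 38.51 to 573.1 CPM in PSCs and 17.45 to 85.37 CPM in NG2-dsRed+ cells. S100β-GFP+ libraries 14, 17 and 22 stood apart with 1091, 3680 and 2059 CPM of endothelial markers, against 145.8 to 245.6 CPM in the other 5. The same libraries had the lowest macrophage and leukocyte sums of the group (4253, 2831 and 1429 CPM, the other 5 from 6854 to 13480 CPM). Their erythroid sums were 21470, 131300 and 55270 CPM, against 25060 CPM in library 3 and 24.86 to 2432 CPM in the other 4. NG2-dsRed+ libraries held 1945 to 4882 CPM of endothelial markers and 7255 to 15750 CPM of pericyte and smooth muscle markers. Results that rest on libraries 14, 17 and 22 are given with and without them below.

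Of the 10 genes, 3 were higher and 4 lower in PSCs than in S100β-GFP+ cells, where 22.9% of all genes tested were higher and 24.1% lower. Against NG2-dsRed+ cells, 2 of 10 were higher and 6 lower in PSCs, beside 20.9% and 23.1% of all genes. Between S100β-GFP+ and NG2-dsRed+ cells 5 were higher and 4 lower in S100β-GFP+ cells, beside 18.1% and 15.2% of all genes. The 3 comparisons share libraries and are not independent. The median log2 fold change of the 10 genes was 0.07, -1.24 and 0.21 in these comparisons, and that of all genes tested 0.04, 0.02 and -0.02. Every PSC library lay above every S100β-GFP+ library for 2 genes and below for 3, against 5.24% and 10.3% of all genes. Every PSC library lay above every NG2-dsRed+ library for 2 genes and below for 3 (5.08% and 8.83% of all genes). Every S100β-GFP+ library lay above every NG2-dsRed+ library for 2 genes and below for 0 (7.21% and 4.38% of all genes). Without libraries 14, 17 and 22 the counts were 4 higher and 3 lower in PSCs against S100β-GFP+ cells, and without PSC library 18 they were 2 higher and 7 lower against NG2-dsRed+ cells. Libraries 14, 17 and 22 held the most Fabp4 and Cd36 of their group, the genes whose calls against PSCs changed without them. Scaling by library size alone moved the median log2 fold change of all genes by 0.50, 0.28 and -0.22 and the share of higher genes among those called from 48.8% to 73.5%, from 47.4% to 65.3% and from 54.3% to 35.4%, so directions below are relative to the typical gene after TMM. In these pools of sorted cells, fewer cells that use a gene and less RNA per cell cannot be told apart.

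**Figure D1:**
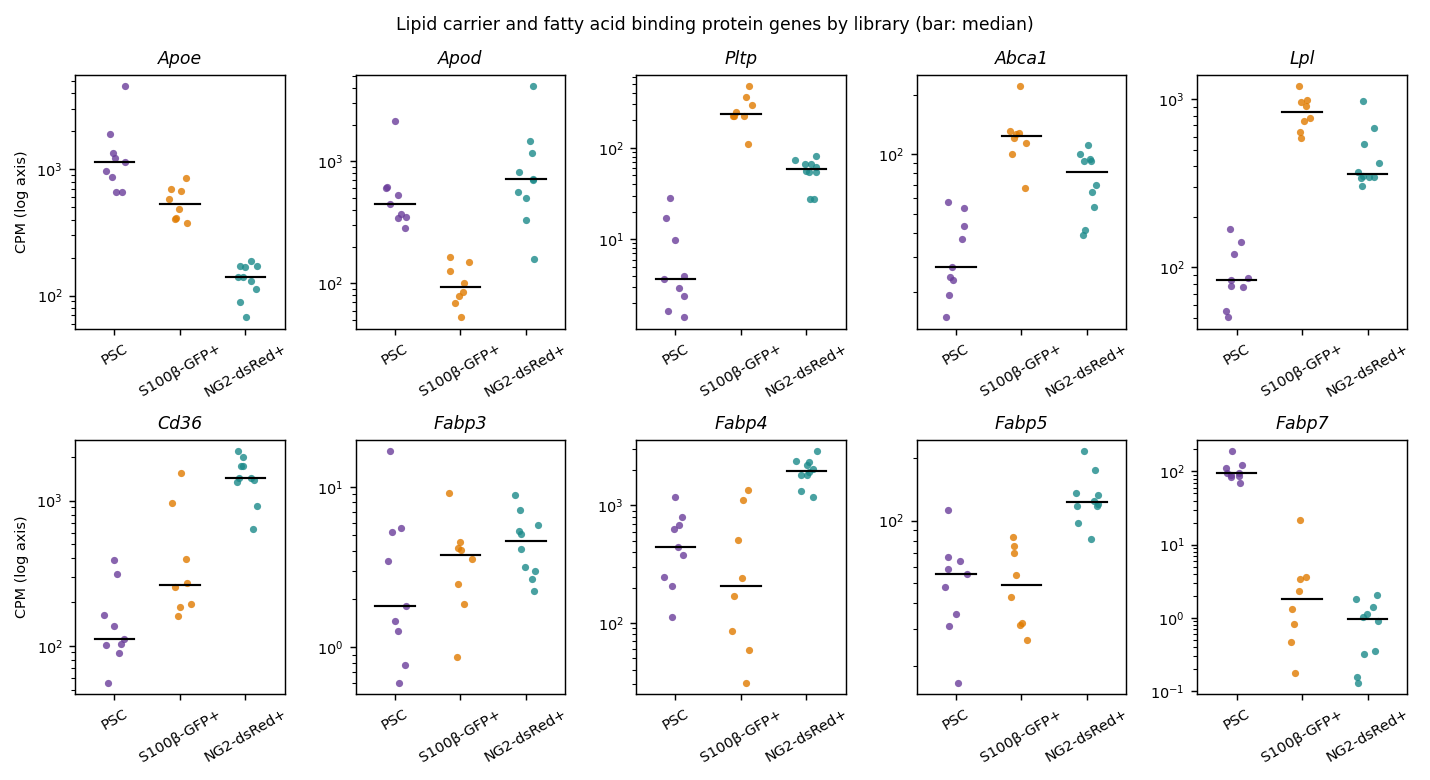
CPM of the 10 genes in each library on log axes, with points for the 9 PSC, 8 S100β-GFP+ and 10 NG2-dsRed+ libraries and a bar at each median. Fabp7 sits at 69.94 to 188.2 CPM in PSCs and at 21.97 CPM or less elsewhere, while Pltp and Lpl are lowest in PSCs.

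Of the 10 genes, Fabp7 had the largest rise and Pltp the largest fall from S100β-GFP+ cells to PSCs, and their promoters are shown for that reason. Promoter windows of 300 bases (250 before and 50 after the start, RefSeq, GRCm38.p6) were matched for 7 of the 10 genes. The windows are printed 5′ to 3′ on the gene's strand up to the base before the first annotated start, with capitals where CCAAT or AGGTCA was found on either strand. The Fabp7 stretch is chr10:57784673-57784880 on the plus strand, and the Pltp stretch is chr2:164857712-164857958 on the minus strand.
Fabp7: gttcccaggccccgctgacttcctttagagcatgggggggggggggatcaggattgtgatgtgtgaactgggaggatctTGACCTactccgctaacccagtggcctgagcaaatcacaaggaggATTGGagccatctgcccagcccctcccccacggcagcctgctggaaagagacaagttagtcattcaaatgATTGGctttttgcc
Pltp: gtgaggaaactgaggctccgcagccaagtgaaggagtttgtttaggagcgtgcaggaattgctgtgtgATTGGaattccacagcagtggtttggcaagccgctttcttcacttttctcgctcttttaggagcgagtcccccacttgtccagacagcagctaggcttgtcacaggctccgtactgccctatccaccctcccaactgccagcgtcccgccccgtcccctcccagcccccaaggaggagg
The Fabp7 window holds CCAAT on the opposite strand at -126 and -56 and AGGTCA on the opposite strand at -171 from the RefSeq start, and the Pltp window holds CCAAT on the opposite strand at -182. Of 32851 windows of this length 37.4% hold CCAAT and 16.3% hold AGGTCA. The search also covered TATAAA, held by 13.6% of windows, and ACAAAG, held by 18.7%. The Pltp window had TATAAA after the start, at 36, and neither of these motifs was in the Fabp7 window. A match is a run of letters and was not tied to any factor.

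Apoe (ENSMUSG00000002985, chr7:19696109-19699188), the main lipid carrier that glia secrete, had its highest level in PSCs. It measured 1484 ± 1216 CPM in PSCs (SD, n = 9), with a lowest library of 662.4, a median of 1138 and a highest of 4559 CPM in library 18. S100β-GFP+ cells had 561 ± 171.2 CPM (SD, n = 8, 373.9 to 853.8, median 533.3) and NG2-dsRed+ cells 138.2 ± 39.26 CPM (SD, n = 10, 67.44 to 187.9, median 140.3). The order was PSCs, S100β-GFP+ cells, NG2-dsRed+ cells, with overlap between the first pair only. The log2 fold change of PSCs was 1.40 over S100β-GFP+ cells (standard error 0.32, edgeR adjusted p = 0.000524) and 3.43 over NG2-dsRed+ cells (standard error 0.31, adjusted p = 3.66e-10). Without PSC library 18 these values were 1.02 (edgeR adjusted p = 0.000601) and 3.07 (adjusted p = 1.08e-11). S100β-GFP+ cells exceeded NG2-dsRed+ cells by 2.02 (standard error 0.30, adjusted p = 4.19e-06). Macrophages also make ApoE. Their marker sums were lower in every PSC library than in every S100β-GFP+ library, while Apoe was higher in PSCs, and they were higher in every S100β-GFP+ library than in every NG2-dsRed+ library, as was Apoe. Among S100β-GFP+ libraries, library 3 had the most macrophage markers and the most Apoe (13480 and 853.8 CPM), and libraries 14, 17 and 22, with the fewest macrophage markers, had the least Apoe (415, 373.9 and 404 CPM). Among PSC libraries, library 18 had the most macrophage markers and the most Apoe (573.1 and 4559 CPM). Library 6, next in macrophage markers (288.9 CPM), had 1138 CPM of Apoe, the median. The part of macrophages in the Apoe level was not tested.

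Apod (ENSMUSG00000022548, chr16:31296192-31314808) encodes apolipoprotein D, a lipocalin that binds small lipids and is made by nerve fibroblasts and glia. It was low in S100β-GFP+ cells, at 103.4 ± 39.73 CPM (SD, n = 8, 52.87 to 164.8, median 93.31), and higher in both NG2-dsRed+ populations. PSCs had 629.3 ± 573.3 CPM (SD, n = 9, 285.8 to 2126, median 450.9) and NG2-dsRed+ cells 1054 ± 1145 CPM (SD, n = 10, 157.3 to 4126, median 711.7). No PSC library overlapped an S100β-GFP+ library, while NG2-dsRed+ libraries spanned both. PSCs exceeded S100β-GFP+ cells by 2.61 on the log2 scale (standard error 0.50, edgeR adjusted p = 8.55e-05), and S100β-GFP+ cells were below NG2-dsRed+ cells (-3.35, standard error 0.52, adjusted p = 5.96e-06, and -2.74 without NG2-dsRed+ library 28). PSCs and NG2-dsRed+ cells were not separated by the test (-0.74, standard error 0.44, edgeR adjusted p = 0.181). That last value rested on 2 libraries: without PSC library 18, at 2126 CPM, it was -1.19 (adjusted p = 0.0194), and without NG2-dsRed+ library 28, at 4126 CPM, it was -0.14 (adjusted p = 0.787). Library 28 had the highest fibroblast marker sum of the NG2-dsRed+ libraries, 19870 CPM. Library 35, next in fibroblast markers (15760 CPM), had 706.7 CPM of Apod, near the group's median. S100β-GFP+ libraries had more fibroblast markers than either (20410 to 46670 CPM) and low Apod. The part of fibroblasts in the Apod level was not tested.

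Both members of lipid efflux and transfer, Pltp and Abca1, were lowest in PSCs. Pltp (ENSMUSG00000017754, chr2:164839518-164857711), the phospholipid transfer protein of plasma lipoproteins, had 7.902 ± 9.19 CPM in PSCs (SD, n = 9, 1.402 to 28.32, median 3.631). It had 268.8 ± 108.3 CPM in S100β-GFP+ cells (SD, n = 8, 108.9 to 472.6, median 235.7) and 56.8 ± 17.57 CPM in NG2-dsRed+ cells (SD, n = 10, 27.82 to 81.48, median 58.86). S100β-GFP+ libraries were all above both other groups, and a single PSC library, 31, reached into the NG2-dsRed+ range. PSCs were lower by edgeR than S100β-GFP+ cells (-5.09, standard error 0.50, adjusted p = 1.26e-09) and than NG2-dsRed+ cells (-2.85, standard error 0.45, adjusted p = 5.96e-06), and limma-voom gave -6.05 and -3.90. S100β-GFP+ cells exceeded NG2-dsRed+ cells by 2.24 (standard error 0.43, edgeR adjusted p = 0.000122). Within S100β-GFP+ cells the library with the most macrophage markers, library 3 at 13480 CPM, had the most Pltp (472.6 CPM) and the library with the fewest, library 22 at 1429 CPM, had the least (108.9 CPM). Among PSC libraries, library 18 had the most macrophage markers and the least Pltp (573.1 and 1.402 CPM). The median macrophage and leukocyte sum was 131 CPM in PSCs and 49.93 CPM in NG2-dsRed+ cells, while Pltp was lower in PSCs. The part of macrophages in the Pltp level was not tested. Exons of Pltp share 495 bases with Ctsa on the other strand, and reads there cannot be told apart where counting ignores strand. Ctsa, a lysosomal protease, changed by -0.55 between PSCs and S100β-GFP+ cells (108.7 and 159.1 CPM, standard error 0.23, edgeR adjusted p = 0.0453).

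Abca1 (ENSMUSG00000015243, chr4:53030787-53159895), the membrane pump that loads cholesterol onto apolipoproteins, followed the same order with smaller steps. PSCs had 33.22 ± 15.24 CPM (SD, n = 9, 14.92 to 57.07, median 26.84), S100β-GFP+ cells 126.2 ± 43.76 CPM (SD, n = 8, 67.69 to 221.5, median 124) and NG2-dsRed+ cells 76.01 ± 25.79 CPM (SD, n = 10, 38.94 to 110.9, median 81.12). PSC libraries all lay below S100β-GFP+ libraries and overlapped NG2-dsRed+ libraries. In edgeR, PSCs were lower than S100β-GFP+ cells (-1.93, standard error 0.27, adjusted p = 6.1e-07) and lower than NG2-dsRed+ cells (-1.20, standard error 0.25, adjusted p = 0.000277). S100β-GFP+ and NG2-dsRed+ cells differed by 0.73 (standard error 0.25, edgeR adjusted p = 0.0257), a call that was lost without library 22 (0.57, adjusted p = 0.0836), without libraries 14, 17 and 22 (0.46, adjusted p = 0.209) and by library size alone (0.51, adjusted p = 0.0903).

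Lpl (ENSMUSG00000015568, chr8:68880491-68907448), the lipase that hydrolyses lipoprotein triglyceride at the vessel wall, was also lowest in PSCs. PSCs had 95.9 ± 39.97 CPM (SD, n = 9, 50.58 to 169.5, median 84.7), S100β-GFP+ cells 850.9 ± 203.4 CPM (SD, n = 8, 589.5 to 1198, median 842.7) and NG2-dsRed+ cells 466.5 ± 211.9 CPM (SD, n = 10, 307 to 973.9, median 359.1). The PSC range lay below both others, which overlapped each other. On the log2 scale PSCs were lower than S100β-GFP+ cells (-3.15, standard error 0.27, edgeR adjusted p = 5.2e-11) and lower than NG2-dsRed+ cells (-2.28, standard error 0.25, adjusted p = 1.19e-08). S100β-GFP+ cells exceeded NG2-dsRed+ cells by 0.87 (standard error 0.24, edgeR adjusted p = 0.00582). Libraries 14, 17 and 22 had 742.3, 769.3 and 994.2 CPM of Lpl, inside the range of the other 5 S100β-GFP+ libraries.

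Cd36 (ENSMUSG00000002944, chr5:17781690-17888801), the fatty acid translocase and scavenger receptor, was highest in NG2-dsRed+ cells. They had 1476 ± 462.2 CPM (SD, n = 10, 639 to 2180, median 1427), against 162.8 ± 113.4 CPM in PSCs (SD, n = 9, 55.89 to 391.6, median 111.4) and 495.6 ± 498 CPM in S100β-GFP+ cells (SD, n = 8, 161.6 to 1544, median 263.2). PSCs did not overlap NG2-dsRed+ cells (-3.18, standard error 0.44, edgeR adjusted p = 6.96e-07) and were lower than S100β-GFP+ cells (-1.61, standard error 0.43, adjusted p = 0.00264). S100β-GFP+ cells lay below NG2-dsRed+ cells (-1.57, standard error 0.43, edgeR adjusted p = 0.00466). Libraries 17, 22 and 14 had 1544, 962.1 and 393.1 CPM and the other 5 S100β-GFP+ libraries 161.6 to 271.9 CPM. Without these 3 libraries the difference between PSCs and S100β-GFP+ cells was -0.34 and no longer passed (edgeR adjusted p = 0.448), and that between S100β-GFP+ and NG2-dsRed+ cells grew to -2.81 (adjusted p = 2.11e-06). As these 3 were the highest in Cd36 of their group, the direction of both shifts was set by leaving them out.

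**Figure D2:**
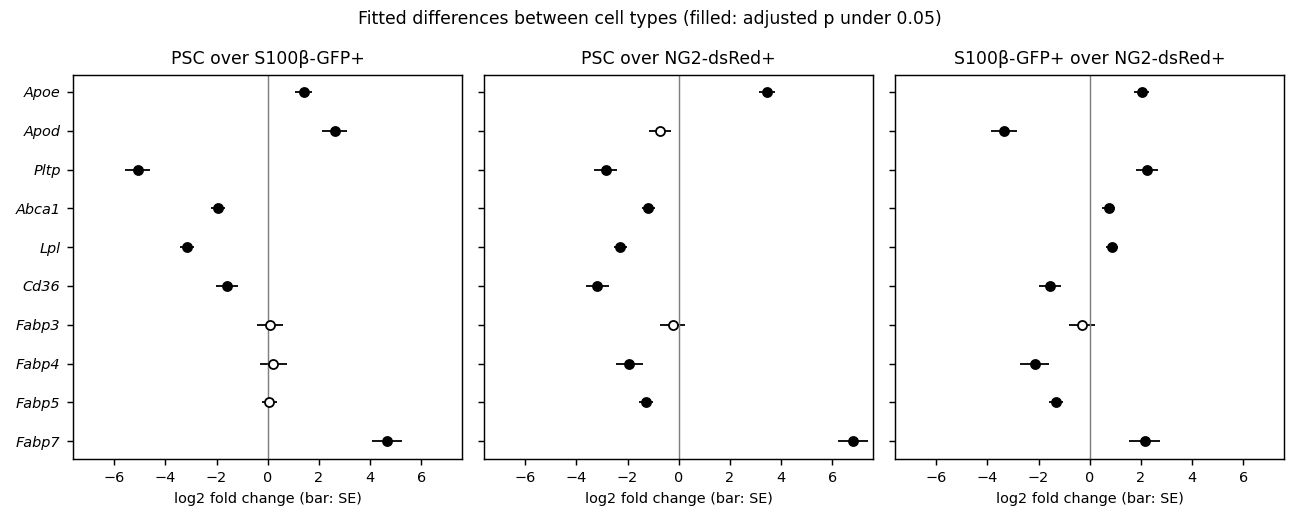
Fitted log2 fold changes of the 10 genes in the 3 comparisons, with bars of 1 standard error and filled points where the adjusted p was under 0.05. Fabp7 and Apoe lie to the right of 0 in both PSC panels, and Pltp, Abca1, Lpl and Cd36 to the left.

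Of the 4 FABP genes, Fabp7 was highest in PSCs, Fabp4 and Fabp5 were highest in NG2-dsRed+ cells, and Fabp3 passed the edgeR test in no comparison. Fabp7 (ENSMUSG00000019874, chr10:57784881-57788450), the brain-type FABP of glia, had 104.4 ± 34.77 CPM in PSCs (SD, n = 9, 69.94 to 188.2, median 93.92). It had 4.253 ± 7.273 CPM in S100β-GFP+ cells (SD, n = 8, 0.1742 to 21.97, median 1.805) and 0.9262 ± 0.683 CPM in NG2-dsRed+ cells (SD, n = 10, 0.1299 to 2.046, median 0.9639). Every PSC library was above every other library. The log2 fold change of PSCs was 4.66 over S100β-GFP+ cells (standard error 0.58, edgeR adjusted p = 9.87e-08) and 6.80 over NG2-dsRed+ cells (standard error 0.60, adjusted p = 1.81e-10). In S100β-GFP+ cells 99 of 181 counts came from library 33, at 21.97 CPM, which also had the highest Schwann cell lineage sum of that group, 516.5 CPM, and without it the first value was 5.85. S100β-GFP+ cells exceeded NG2-dsRed+ cells by 2.14 (standard error 0.60, edgeR adjusted p = 0.00567), which was lost without library 33 (0.94, adjusted p = 0.123) and in limma-voom (1.07, adjusted p = 0.175).

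Fabp4 (ENSMUSG00000062515, chr3:10204088-10208576), the FABP of adipocytes and capillary endothelium, was highest in NG2-dsRed+ cells at 1992 ± 502.2 CPM (SD, n = 10, 1182 to 2885, median 1977). PSCs had 520.2 ± 336.7 CPM (SD, n = 9, 112.3 to 1173, median 447.2) and lay wholly below NG2-dsRed+ cells (-1.94, standard error 0.53, edgeR adjusted p = 0.0034). S100β-GFP+ cells had 446 ± 515.9 CPM (SD, n = 8, 31.07 to 1360, median 204.4), below NG2-dsRed+ cells (-2.16, standard error 0.56, adjusted p = 0.0029). PSCs and S100β-GFP+ cells did not differ by the test (0.22, standard error 0.53, edgeR adjusted p = 0.763), but the S100β-GFP+ libraries fell into unlike sets. Libraries 17, 22 and 14 had 1360, 1119 and 505.5 CPM and the other 5 had 31.07 to 239.5 CPM. Without libraries 14, 17 and 22, PSCs exceeded S100β-GFP+ cells by 2.22 (edgeR adjusted p = 0.000551) and S100β-GFP+ cells lay further below NG2-dsRed+ cells (-4.11, adjusted p = 6.73e-07), and limma-voom with all libraries gave 1.40 (adjusted p = 0.03) and -3.44. The libraries left out were those highest in Fabp4. The direction of the shift was thus set by the choice, and the values without them only describe the remaining libraries. In S100β-GFP+ cells Fabp4 and Cd36 were highest in libraries 14, 17 and 22, which had the most endothelial markers, the fewest macrophage markers and high erythroid sums. All 10 endothelial markers were lower in PSCs than in NG2-dsRed+ cells by the test. Among PSC libraries the highest Fabp4, 1173 CPM in library 36, stood beside an endothelial sum of 328.8 CPM, and the highest endothelial sum, 949.3 CPM in library 31, beside 635.3 CPM of Fabp4. Library 18 had the lowest of both, 112.3 and 220.2 CPM. Cd36 in PSCs was highest in libraries 31 and 6 (391.6 and 313.8 CPM), which had the highest endothelial sums (949.3 and 677.7 CPM). It was lowest in libraries 34 and 18 (55.89 and 88.83 CPM), which had the lowest endothelial sums (283.2 and 220.2 CPM). Adipocyte markers summed to 9.493 to 58.74 CPM in PSCs, 7.546 to 145 CPM in S100β-GFP+ cells and 67.39 to 211.7 CPM in NG2-dsRed+ cells, with Adrb3 at 0 counts in PSCs and in NG2-dsRed+ cells. The part of endothelial cells, adipocytes, macrophages and blood in the Fabp4 and Cd36 levels was not tested.

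**Figure D3:**
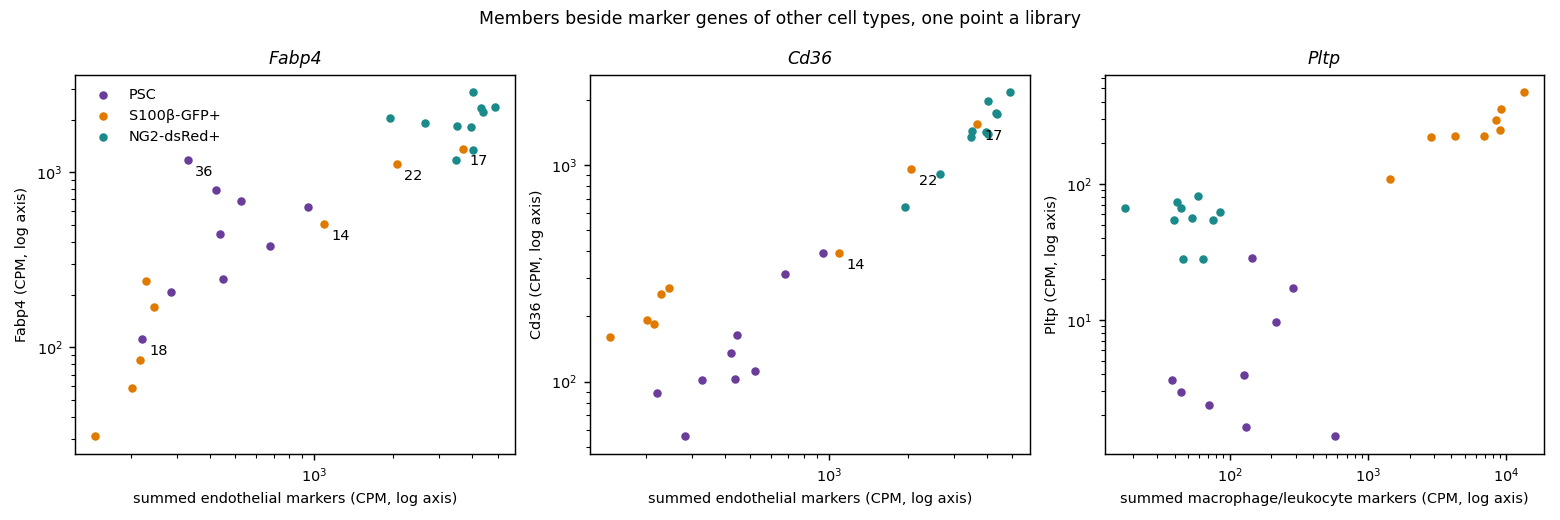
Fabp4 and Cd36 against the summed CPM of 10 endothelial markers, and Pltp against 12 macrophage and leukocyte markers, with a point for each library on log axes. S100β-GFP+ libraries 14, 17 and 22 lie to the right of the other 5 in the endothelial panels, at 1091, 3680 and 2059 CPM. PSC library 36 holds 1173 CPM of Fabp4 at 328.8 CPM of endothelial markers, and PSC library 18 holds 112.3 CPM at 220.2 CPM.

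Fabp5 (ENSMUSG00000027533, chr3:10012548-10016607), the epidermal FABP found in many cell types, separated NG2-dsRed+ cells from the other groups. NG2-dsRed+ cells had 131.7 ± 38.27 CPM (SD, n = 10, 81.87 to 215.3, median 122.3), PSCs 54.35 ± 27.52 CPM (SD, n = 9, 16.64 to 112.8, median 55.42) and S100β-GFP+ cells 52.19 ± 22.17 CPM (SD, n = 8, 26.56 to 83.77, median 49.02). PSCs (-1.28, standard error 0.27, edgeR adjusted p = 0.000269) and S100β-GFP+ cells (-1.33, standard error 0.28, adjusted p = 0.000376) were below NG2-dsRed+ cells with overlapping libraries. PSC and S100β-GFP+ libraries overlapped and differed by 0.06 (standard error 0.28, edgeR adjusted p = 0.883). Among PSC libraries, library 36 was highest and library 18 lowest for both Fabp4 and Fabp5.

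Fabp3 (ENSMUSG00000028773, chr4:130308595-130315463), the muscle and heart FABP, was scarce in all 3 populations, whose ranges overlapped. It had 4.093 ± 5.06 CPM in PSCs (SD, n = 9, 0.6049 to 16.64, median 1.816), 3.836 ± 2.511 CPM in S100β-GFP+ cells (SD, n = 8, 0.8708 to 9.216, median 3.786) and 4.756 ± 2.155 CPM in NG2-dsRed+ cells (SD, n = 10, 2.264 to 8.957, median 4.591), from 282, 180 and 318 counts. No comparison passed the test (0.08, -0.23 and -0.31, edgeR adjusted p = 0.917, 0.731 and 0.685), while limma-voom placed PSCs below NG2-dsRed+ cells (-1.35, adjusted p = 0.00602). The first value turned to -0.53 without PSC library 18, and the second had the opposite sign by library size alone (0.02). Library 18 had the highest Fabp3 (16.64 CPM) and the highest sum of skeletal muscle fibre markers among all libraries (1469 CPM), whose part in the Fabp3 level was not tested. Fabp3 shares 80 and 81 exon bases with Gm10570 and Zcchc17 on the other strand, and Zcchc17 stood at 47.33, 25.43 and 26.51 CPM in PSCs, S100β-GFP+ cells and NG2-dsRed+ cells.

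Levels of different genes can be compared only per length, given as CPM per kb. By the length of all annotated exons, Apoe ranked 46th of 15316 genes in PSCs (694.2 CPM per kb) and Fabp7 427th, and Fabp4, Cd36 and Apod ranked 68th, 77th and 78th in NG2-dsRed+ cells. For some of these genes all annotated exons together are longer than the principal transcript. The factor was 5.01 for Fabp4, with a principal transcript of 896 bases, 3.61 for Fabp5 and 1.55 for Fabp7. With the longest principal transcript as length, a choice made after seeing the data, Apoe ranked 24th, Fabp4 51st and Fabp7 310th of 9833 genes in PSCs, and Fabp4 ranked 5th in NG2-dsRed+ cells.

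Within a library, shares of FABP RNA do not depend on scaling between libraries. Of the summed CPM per kb of Fabp3, Fabp4, Fabp5, Fabp7 and Pmp2 (the myelin FABP), Fabp7 took 41.5 ± 17.8% in PSCs (SD, n = 9, 22.8 to 75.1%), 7.48 ± 14.7% in S100β-GFP+ cells (SD, n = 8, 0.114 to 43.2%) and 0.174 ± 0.152% in NG2-dsRed+ cells (SD, n = 10). The S100β-GFP+ mean rested on library 33, at 43.2%, and was 2.37% over the other 7 libraries (0.114 to 8.56%). Fabp4 took 49.3 ± 18.7%, 64.4 ± 24.9% and 90.8 ± 2.44%. Pmp2 shares 1224 exon bases with the protein-coding gene Gm37389 on the same strand. Reads there may be counted for neither gene, so the Pmp2 share may be too low and the other shares too high. Which FABP was most abundant is therefore given for the counts as deposited. With the principal transcript as length, Fabp7 took 21.9 ± 16.1% in PSCs (8.8 to 59%) and Fabp4 69.9 ± 17.3%. In S100β-GFP+ cells Fabp7 then took 4.14 ± 9.3%, or 0.878% without library 33. Fabp7 was the most abundant FABP in 1 of 9 PSC libraries, library 18, instead of 3. By either length Fabp4 was the most abundant FABP in all 10 NG2-dsRed+ libraries.

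**Figure D4:**
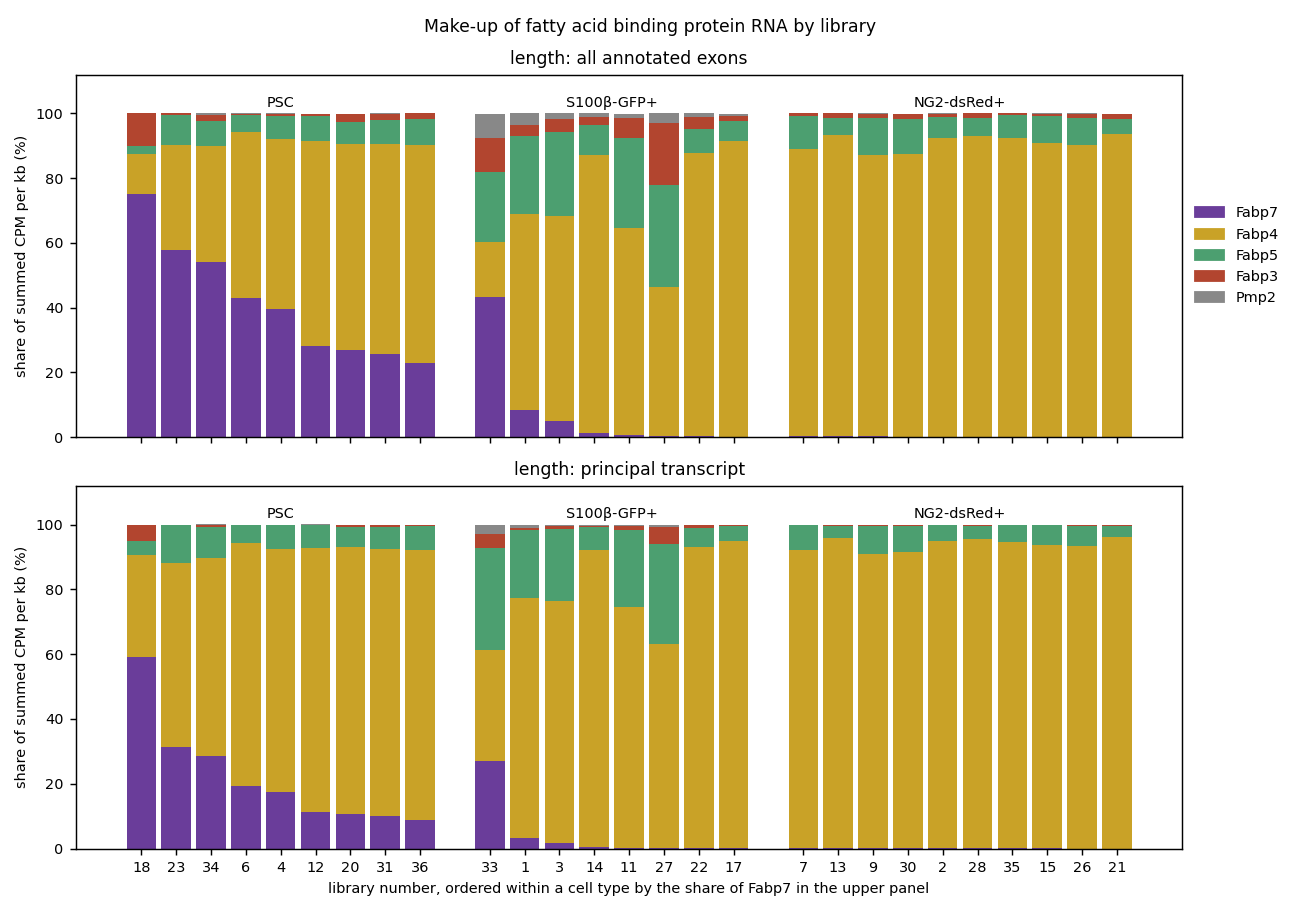
Share of each FABP gene in the summed CPM per kb of a library, by the length of all annotated exons (upper panel) and of the principal transcript (lower panel), with a column for each of the 27 libraries. Fabp7 makes up 22.8 to 75.1% in PSCs in the upper panel and 8.8 to 59% in the lower, and Fabp4 fills most of every NG2-dsRed+ library.

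The genes with the pattern most like a member were those whose log2 ratio to it had the smallest SD over 27 libraries. They were Igsf11, Foxd3 and Cadm1 for Fabp7 (SD 0.94, 0.97 and 1.00), the second a transcription factor of the neural crest lineage. Tnfrsf1b, Tnf and Klhl6, genes of leukocytes, were nearest to Pltp (0.50, 0.73 and 0.74), and Gimap4, Ctla2a and C130074G19Rik to Fabp4 (0.58, 0.61 and 0.61). Syt11, Nceh1 and St3gal5 were nearest to Apoe (0.65, 0.67 and 0.69), and Pde1a, Cp and Col18a1 to Apod (0.88, 0.92 and 0.92).

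Around these genes, 99 further genes of lipid handling were listed in 5 groups, of which 68 passed the filter. In PSCs 18 (26.5%) were higher and 31 (45.6%) lower than in S100β-GFP+ cells, 19 (27.9%) higher and 25 (36.8%) lower than in NG2-dsRed+ cells, to be read against the shares of all genes given above. S100β-GFP+ cells had 21 (30.9%) higher and 14 (20.6%) lower than NG2-dsRed+ cells. The median log2 fold changes were -0.34, -0.18 and 0.27. The first count changed to 20 higher and 20 lower without libraries 14, 17 and 22, and to 28 higher and 17 lower by library size alone. All 12 macrophage and leukocyte markers and all 10 fibroblast markers were lower in PSCs than in S100β-GFP+ cells. Against NG2-dsRed+ cells all 10 fibroblast markers were lower in PSCs, and of the 12 macrophage and leukocyte markers 1 was higher and 6 were lower. The part of these cells in the counts was not tested.

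Receptors and other carriers leaned lower in PSCs. Of 11 tested genes, 0 were higher and 8 (72.7%) lower than in S100β-GFP+ cells (median -1.14), beside 22.9% and 24.1% of all genes. Against NG2-dsRed+ cells 1 (9.09%) was higher and 5 (45.5%) lower (median -0.33), beside 20.9% and 23.1% of all genes. Clu, the secreted chaperone clusterin, had 7.681, 24.03 and 60.66 CPM in PSCs, S100β-GFP+ cells and NG2-dsRed+ cells and was lower in PSCs than in both (-1.65 and -2.99, edgeR adjusted p = 0.00369 and 3.58e-06). The sorting receptor Sorl1 was lower as well (4.256, 14.03 and 15.46 CPM, -1.72 and -1.86, edgeR adjusted p = 6.55e-06 and 1.41e-06). Lsr and Lrp8, receptors of lipoproteins, were lower than in S100β-GFP+ cells (-2.58 and -1.93) from under 10 CPM in each group, and Lsr shares 946 exon bases with the antisense Gm4673. Apoc1, an apolipoprotein singled out after its values were seen, was the only gene of this list higher than in NG2-dsRed+ cells (5.011 and 0.2277 CPM, 4.31, edgeR adjusted p = 9.24e-05) and did not pass against S100β-GFP+ cells (1.56, adjusted p = 0.0916).

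Of 15 efflux and transfer genes, 4 (26.7%) were higher and 9 (60%) lower than in S100β-GFP+ cells, beside 22.9% and 24.1% of all genes. Against NG2-dsRed+ cells 4 (26.7%) were higher and 5 (33.3%) lower, beside 20.9% and 23.1% of all genes. Abca8b, a transporter of the ABCA family, was higher in PSCs (369.6, 32.52 and 48.93 CPM, 3.51 and 2.92, edgeR adjusted p = 1.22e-11 and 5.63e-11), and so was its neighbour Abca8a (605.7, 122.1 and 209.2 CPM, 2.31 and 1.53), a close copy whose reads may be shared with it. Npc1, which exports cholesterol from lysosomes, was higher (104, 55.08 and 39.68 CPM, 0.92 and 1.39), and so was Abcg4 at under 4 CPM (0.94 and 2.13). Abcg1, which loads cholesterol onto high-density particles, was scarce in PSCs (0.792, 22.4 and 10.96 CPM, -4.81 and -3.78, edgeR adjusted p = 2.15e-09 and 1.07e-07). Nr1h3, the sterol-sensing receptor LXRα that drives Abca1 and Abcg1 in many cells, was lower too (3.457, 8.613 and 38.27 CPM, -1.35 and -3.50, edgeR adjusted p = 0.0148 and 2.5e-07), with Abca9 (-2.05 and -1.82) and Abca6 (-0.94 and -1.29). In S100β-GFP+ against NG2-dsRed+ cells Nr1h3 was lower (-2.15, edgeR adjusted p = 0.000296) and Abcg1 higher (1.03, adjusted p = 0.0446), as was Abca1 (0.73). Nr1h2, the other LXR gene of the list, named after its values were seen, had 30.55, 36.81 and 43.61 CPM in PSCs, S100β-GFP+ cells and NG2-dsRed+ cells. In PSCs it did not pass against S100β-GFP+ cells (-0.27, edgeR adjusted p = 0.265) and was lower than in NG2-dsRed+ cells (-0.52, adjusted p = 0.0247). The part of Nr1h3 and Nr1h2 in the Abca1 and Abcg1 levels was not tested. Npc1 shares 511 exon bases with Rmc1 and Abca8b 241 with Gm11697, both on the other strand.

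Of 18 genes of lipolysis and lipid droplets, 5 (27.8%) were higher and 7 (38.9%) lower than in S100β-GFP+ cells, beside 22.9% and 24.1% of all genes. Against NG2-dsRed+ cells 4 (22.2%) were higher and 5 (27.8%) lower, near the 20.9% and 23.1% of all genes. Inhibitors of lipolysis were among those higher in both comparisons. The lipase gene Mgll (0.87, edgeR adjusted p = 0.00678) and Lmf2 (0.47, adjusted p = 0.000382) were higher than in S100β-GFP+ cells alone. Pnpla3 was higher than in NG2-dsRed+ cells alone (2.24, edgeR adjusted p = 0.00476). Mgll, Lmf2 and Pnpla3 were named after their values were seen. G0s2, an inhibitor of adipose triglyceride lipase, had 92.85, 10.68 and 46.95 CPM in PSCs, S100β-GFP+ cells and NG2-dsRed+ cells (3.11 and 0.98, edgeR adjusted p = 9.52e-11 and 0.000855). Angptl4, a secreted inhibitor of lipoprotein lipase, had 126.3, 48.11 and 43.36 CPM (1.39 and 1.54, edgeR adjusted p = 0.000699 and 0.000102). Plin2, which coats lipid droplets, was lower in PSCs (26.19, 108.4 and 40.51 CPM, -2.05 and -0.63, edgeR adjusted p = 1.72e-08 and 0.0187), with Plin4 (-1.68 and -2.69) and the hormone-sensitive lipase gene Lipe (-0.97 and -1.73), which shares 918 exon bases with an antisense gene. Plin1, of adipocyte droplets, was lower than in S100β-GFP+ cells (0.5127 and 8.811 CPM, -4.06) and did not pass against NG2-dsRed+ cells.

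Fatty acid uptake and activation held the largest differences of the lists in both PSC comparisons. Of 19 genes, 8 (42.1%) were higher and 6 (31.6%) lower than in S100β-GFP+ cells, beside 22.9% and 24.1% of all genes. Against NG2-dsRed+ cells 9 (47.4%) were higher and 7 (36.8%) lower, beside 20.9% and 23.1% of all genes. Acsbg1, an acyl-CoA synthetase of brain and other tissues, had 380.5 ± 135.6 CPM in PSCs (SD, n = 9), 3.893 ± 1.826 CPM in S100β-GFP+ cells (SD, n = 8) and 1.088 ± 0.9482 CPM in NG2-dsRed+ cells (SD, n = 10), with no overlap (6.62 and 8.41, edgeR adjusted p = 1.81e-13 and 1.26e-15). Rxrg, a nuclear receptor partner of the PPARs, had 110.3 ± 17.25 CPM in PSCs (SD, n = 9) and 2.098 and 1.021 CPM in the others (5.72 and 6.73, edgeR adjusted p = 9.25e-14 and 1.4e-15). The fatty acid transporters Slc27a1 (78.26, 20.67 and 14.65 CPM, 1.92 and 2.41) and Slc27a6 (7.342, 1.025 and 0.3947 CPM, 2.83 and 4.14) were higher in PSCs. The coactivator Ppargc1a (3.11 and 1.93), Ppara (1.82 and 2.26), Scarb2 (1.03 and 1.10) and Rxrb (0.83 and 0.65) were higher as well. Pparg, which drives Fabp4 and Cd36 in adipocytes, was lower in PSCs (5.23, 17.18 and 32.78 CPM, -1.72 and -2.65, edgeR adjusted p = 0.00166 and 8.43e-06), and so were Slc27a3 (-3.20 and -1.70), Acsl5 (-1.26 and -0.93) and Acsl3 (-0.81 and -1.32), the last 2 overlapping Zdhhc6 by 404 and Utp14b by 244 exon bases.

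**Figure D5:**
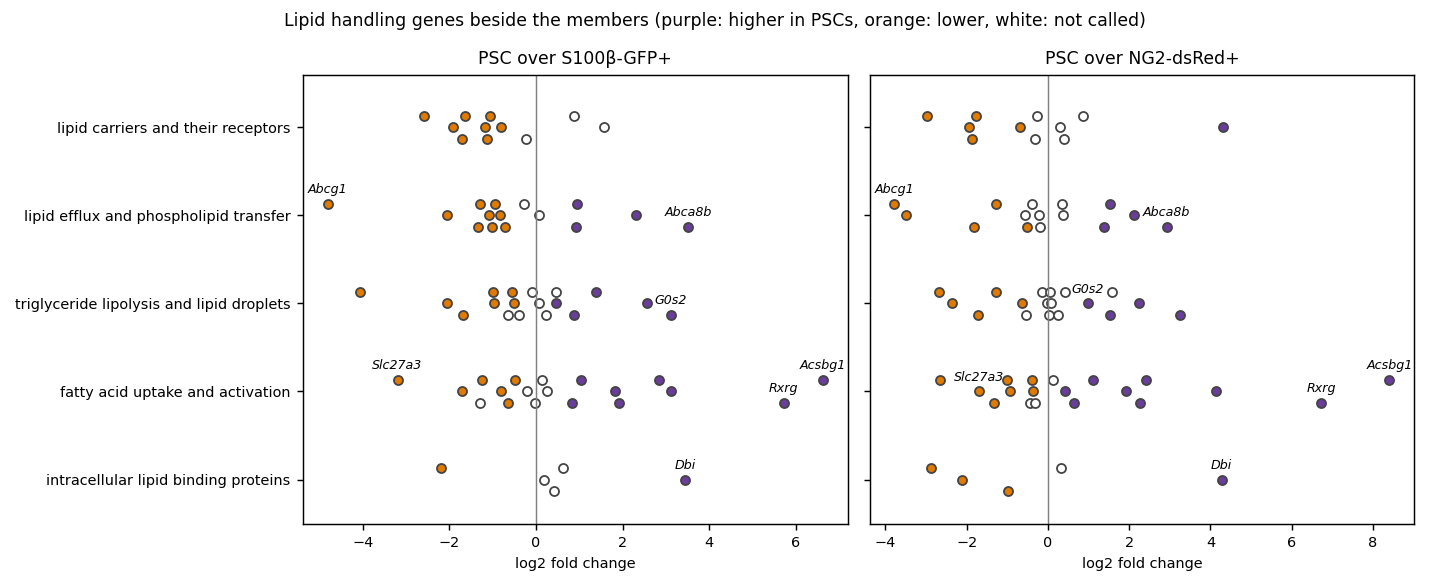
Log2 fold changes of PSCs over S100β-GFP+ cells (left) and over NG2-dsRed+ cells (right) for the 68 further lipid genes tested, by list, purple where higher, orange where lower and white where the test was not passed. Acsbg1 lies at 6.62 and 8.41, Rxrg at 5.72 and 6.73 and Abcg1 at -4.81 and -3.78.

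Among the other intracellular lipid binding proteins only 5 of 13 passed the filter. Dbi, the acyl-CoA binding protein, had 1979 ± 1196 CPM in PSCs (SD, n = 9, 513.2 to 4169, median 1991), against 182.1 ± 87.88 CPM in S100β-GFP+ cells (SD, n = 8) and 101.9 ± 47.04 CPM in NG2-dsRed+ cells (SD, n = 10). Every PSC library exceeded every other library (3.44 and 4.28, edgeR adjusted p = 2.75e-08 and 1.87e-10). Rbp7 and Crabp2, which bind retinoids and were named after their values were seen, were lower than in NG2-dsRed+ cells (-2.87 and -2.11) and did not pass against S100β-GFP+ cells.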

How the data were processed

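RNA of cells sorted by FACS was amplified with a SMART-Seq v4 kit and sequenced. Reads were trimmed by the authors, and the submitters' processing notes name HISAT2, HTSeq and build GRCm38. The values deposited are raw counts, 1 whole number per gene and library. The sources used here give neither tool versions nor the strandedness of counting. The table has 27 of the 36 labelled libraries, matched by library number, and the others were not analysed here. The study removed failed samples and kept 7 S100β-GFP+ libraries without naming them, while the table holds 8, so the 8 used here may include 1 that it left out. Replicates of a cell type were never identical and differed by more than sampling noise (109 pairs, lowest chi-square per degree of freedom 8.1). Library numbers are not shared between cell types, so no pairing was used. Identifiers were matched to GENCODE M21 (52489 found).

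Testing was done with edgeR 4.0.16 (R 4.3.3): TMM, filterByExpr (minimum count 10), a quasi-likelihood fit of all 3 cell types and Benjamini-Hochberg adjustment over 15330 genes at 0.05. The study used the Wald test of DESeq2 (1.42.0 here), kept as an alternative. The scripts were tested on simulated counts. Log2 CPM used a prior count of 2. P-values set the fitted difference between cell types against the spread between libraries. Counts of a few reads limit Fabp3, and Fabp7 outside PSCs.

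Members, lists and the set of libraries 14, 17 and 22 were chosen with earlier results of these data known. By rule, all 10 members are named, with list genes called in the same direction in PSCs against both other cell types, the 3 largest per list against S100β-GFP+ cells, the 3 genes most like the members with the largest range, and genes that overlap a member. Some listed genes that this rule names are not reported here. Alternatives were DESeq2, edgeR with those size factors, all genes unfiltered, fits of the compared cell types only, limma-voom (3.58.1) with quality weights, library size only, a covariate for the counts that Lars2, Gm23935 and Gm15564 take (3.64 to 40.0% per library), a 2-fold minimum, leaving out libraries 14, 17 and 22, and leaving out each of 27 libraries in turn. The principal transcript as length, and FABP shares with each library left out, were added after seeing the data. Comparisons of the authors, imaging and qPCR were not used here.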

Additional observations from a re-analysis of the deposited data

Results flagged for a closer look

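In 30 sets of values, each a member in a cell type, the highest or lowest library was compared with its neighbour by Dixon's ratio, which chance passes in about 1 of 20 sets. Only 1 passed: Apod in PSC library 18 had 2126 CPM while the other 8 PSC libraries had 285.8 to 612.1 CPM (ratio 0.621 on the log2 scale). The same library had the highest Apoe, Fabp3 and Fabp7 and the lowest Fabp4 and Fabp5 of the PSC libraries.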

How the results depend on the processing

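Of the members' fold changes outside the fits that leave out a single library, 229 kept their side of the threshold or their size, 3 turned direction, 3 gained and 6 lost a call, and with each library left out 800 kept it, 7 turned direction, 1 gained and 2 lost a call. The turned values were small and never passed the test: Fabp3 between PSCs and S100β-GFP+ cells was -0.75 in limma-voom and -0.53 to 0.40 with a library left out, Fabp3 between PSCs and NG2-dsRed+ cells was 0.02 by library size alone, and Fabp5 between PSCs and S100β-GFP+ cells was -0.11 with the share of 3 genes as a term and -0.11 to 0.24 with a library left out. Among listed lipid genes, 31 lower in PSCs than in S100β-GFP+ cells became 20 without libraries 14, 17 and 22, 17 by library size alone and 20 with a 2-fold minimum, and 18 higher became 28 by library size alone. With a 2-fold minimum 3 of 5 members stayed higher and 9 of 14 listed genes stayed lower in S100β-GFP+ than in NG2-dsRed+ cells. By CPM or by principal transcript in place of all exons, the mean share of Fabp7 in PSCs was 20.2% or 21.9%, that of Fabp4 70.7% or 69.9% in PSCs and 93.3% or 93.8% in NG2-dsRed+ cells, and that of Fabp3 0.222% or 0.243% in NG2-dsRed+ cells. With 1 library left out, the mean Fabp7 share in S100β-GFP+ cells fell to 2.37% (library 33) and that of Fabp3 in PSCs to 1.28% (library 18, from 2.26%). The shares under other lengths moved with the lengths alone and the 2-fold counts with the stricter rule, and for the other changes the cause was not tested. Fabp7 between S100β-GFP+ and NG2-dsRed+ cells did not pass the low-count filter when only those cell types were fitted. No paired analysis was possible because no library number occurs in more than 1 cell type. Fabp3, and Fabp7 outside PSCs, rest on 61 to 318 counts per cell type.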
